A study of Mus musculus with 6 samples.

Results

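The genes described here are 9 receptors, transcription factors and markers by which cardiac fibroblasts are recognised: Pdgfra, Pdgfrb, Ddr2, Thy1, S100a4, Tcf21, Osr1, Tbx18 and Hmga2. They were chosen by name, matched by Entrez identifier among 27179 genes of the bulk table and by Ensembl identifier among 30716 non-mitochondrial genes of the single-cell tables, and all 9 were found in both. The study asked how fibroblasts of different age act on immature cardiomyocytes, so neonatal C57BL/6 mouse cardiomyocytes (imCMs) were grown either with cardiac fibroblasts from newborn hearts (NF, giving imCM-NF) or with cardiac fibroblasts from adult hearts (AF, giving imCM-AF). The labels name no altered gene and no treatment in either group. Fibroblasts of both ages were passaged in culture before the imCMs were added, more of them per imCM were plated from adult than from newborn hearts, and co-cultured cells were separated by dye labelling and sorting according to the study's methods, whereas the labels name centrifugation.

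Bulk RNA was counted in 2 imCM-NF and 2 imCM-AF libraries of 9278909 to 12088577 counted reads. Single cells were counted on 2 nanowell chips, one of fibroblasts with 1063 wells and one of cardiomyocytes with 1419 wells. The wells carry source names, which are AF1, AF2, NF1 and NF2 on the fibroblast chip, AFNCM1 to AFNCM3 and NFNCM1 to NFNCM3 on the cardiomyocyte chip, with further wells named NF0 or AF0 on the former and NCM0 on the latter. The first 10 were read as the co-culture wells, because their names match the groups. What a 0 stands for, and whether the numbers mark separate cultures, is not given in the sources used here. Of 1648 co-culture wells 1490 passed the filters, and of 814 wells with a 0 in the name 764 did. The chips have 269 well barcodes in common. With 1 chip for each kind of cell no test was possible between wells, and all intervals on well values are 95% intervals that cover counting error only.

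Fibroblasts lay down and remodel the collagen matrix of the heart, and most of them descend from the epicardium, the outer cell layer of the embryonic heart. PDGFRA and PDGFRB are receptor tyrosine kinases that bind platelet-derived growth factors, PDGFRA being the usual marker of resident cardiac fibroblasts and PDGFRB also marking pericytes and smooth muscle. DDR2 is a receptor kinase that binds fibrillar collagen, THY1 is a surface glycoprotein, and S100A4 is a calcium-binding protein once used as a fibroblast marker that is also made by macrophages. TCF21 and TBX18 are transcription factors of the epicardium and its progeny, OSR1 is a zinc finger factor of embryonic mesenchyme, and HMGA2 is a chromatin protein of embryonic and growing cells.

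Most of the genes lie in mouse build GRCm38 (mm10) at chromosome 5, 75151322 to 75198206 (Pdgfra), chromosome 1, 169972307 to 170110836 (Ddr2), chromosome 9, 44043384 to 44048579 (Thy1), and chromosome 3, 90603770 to 90606045 (S100a4). The factors lie at chromosome 10, 22817263 to 22820143 (Tcf21), chromosome 12, 9574442 to 9581500 (Osr1), chromosome 9, 87702800 to 87731260 (Tbx18), and chromosome 10, 120361268 to 120476469 (Hmga2). Pdgfra, Tcf21, Ddr2 and Hmga2 overlap other annotated genes, all of them miRNA or long non-coding genes. No source used here says if counting was strand-specific, so reads of such partners could not be told apart.

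RefSeq promoter windows, from 250 bases before to 50 bases after the start site, were read for 6 of the 9 genes. Shown are the window of S100a4 (chr3:90603520-90603819, + strand), because its difference between adult and neonatal fibroblasts turned with the source of the wells, and those of Pdgfra (chr5:75152001-75152300, + strand), Ddr2 (chr1:170088895-170089194, - strand) and Tbx18 (chr9:87731211-87731510, - strand), 3 of the genes that were higher together in adult co-culture wells. Capitals mark matches, on either strand, to the TATA box (letters TATAAA), the CCAAT box (as spelled), the GC box (letters GGGCGG), the AP-1 site (letters TGANTCA), the TEAD site (letters GGAATG) and one kind of E-box (letters CAGCTG). None of these motifs overlapped another in the 4 windows.
S100a4: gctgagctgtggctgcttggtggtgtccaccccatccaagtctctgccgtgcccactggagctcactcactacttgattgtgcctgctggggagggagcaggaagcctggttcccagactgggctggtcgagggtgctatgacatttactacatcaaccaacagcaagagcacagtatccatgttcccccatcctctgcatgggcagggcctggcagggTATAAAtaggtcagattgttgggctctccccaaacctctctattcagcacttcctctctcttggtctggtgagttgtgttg
Pdgfra: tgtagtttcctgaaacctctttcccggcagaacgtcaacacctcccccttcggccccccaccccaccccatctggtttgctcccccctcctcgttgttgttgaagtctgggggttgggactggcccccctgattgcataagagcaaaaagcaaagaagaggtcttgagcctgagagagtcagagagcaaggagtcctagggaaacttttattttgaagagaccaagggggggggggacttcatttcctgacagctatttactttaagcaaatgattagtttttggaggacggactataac
Ddr2: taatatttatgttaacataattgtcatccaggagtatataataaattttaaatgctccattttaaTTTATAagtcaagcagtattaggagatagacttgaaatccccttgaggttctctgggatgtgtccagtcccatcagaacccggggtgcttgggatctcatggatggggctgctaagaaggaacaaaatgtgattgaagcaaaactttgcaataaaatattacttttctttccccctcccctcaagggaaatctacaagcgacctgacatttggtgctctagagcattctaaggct
Tbx18: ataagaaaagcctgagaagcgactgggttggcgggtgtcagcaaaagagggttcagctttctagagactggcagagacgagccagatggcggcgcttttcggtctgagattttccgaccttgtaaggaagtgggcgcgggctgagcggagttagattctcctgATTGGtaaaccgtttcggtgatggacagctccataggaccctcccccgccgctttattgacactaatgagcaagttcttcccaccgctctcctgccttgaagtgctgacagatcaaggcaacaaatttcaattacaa
The S100a4 window held a TATA box starting 31 bases before the start site, a motif found in 13.6% of 32851 mouse promoter windows of this length. Ddr2 held the same letters on the other strand, 185 bases before the start site of its window, and Tbx18 held a CCAAT box, found in 37.4% of windows. The windows of Ddr2 and Pdgfra lie within the spans given for these genes above, so their start sites are not the outermost ones. Hmga2, not shown, held a GC box (35.7% of windows). The Pdgfra and Tcf21 windows held none of the motifs, the others of which occurred in 7.81% (AP-1), 14.7% (TEAD) and 16.3% (E-box) of windows. The windows of Tbx18 and Hmga2 had 15 and 12 CpG pairs, those of S100a4 and Ddr2 had 2 each, and the median over all windows was 7.

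In the bulk imCM libraries the first comparison was whether imCMs kept with adult fibroblasts carried different levels of these genes than imCMs kept with neonatal ones. Thy1, Tcf21 and Pdgfrb fell, and no member rose. Levels are given as TMM-scaled CPM values and differences as log2 of imCM-AF over imCM-NF ± SE, with n = 2 libraries per group. A gene was called at an edgeR adjusted p under 0.05 and an absolute log2 difference over 0.58. By this rule 3 of 9 members were called lower and 0 higher, where 4.99% of the 14041 tested genes were called lower and 6.15% higher. At adjusted p alone 5 members were lower, against 14.5% of all tested genes, and 0 were higher, against 12.5%. The median log2 difference was -0.50 over the members and 0.00113 over all tested genes. The libraries are of imCMs separated from the co-cultured fibroblasts, and in them a lower level can be fewer fibroblasts or other cells, less RNA per such cell or less RNA in the imCMs themselves, which cannot be told apart in bulk.

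**Figure D1:**
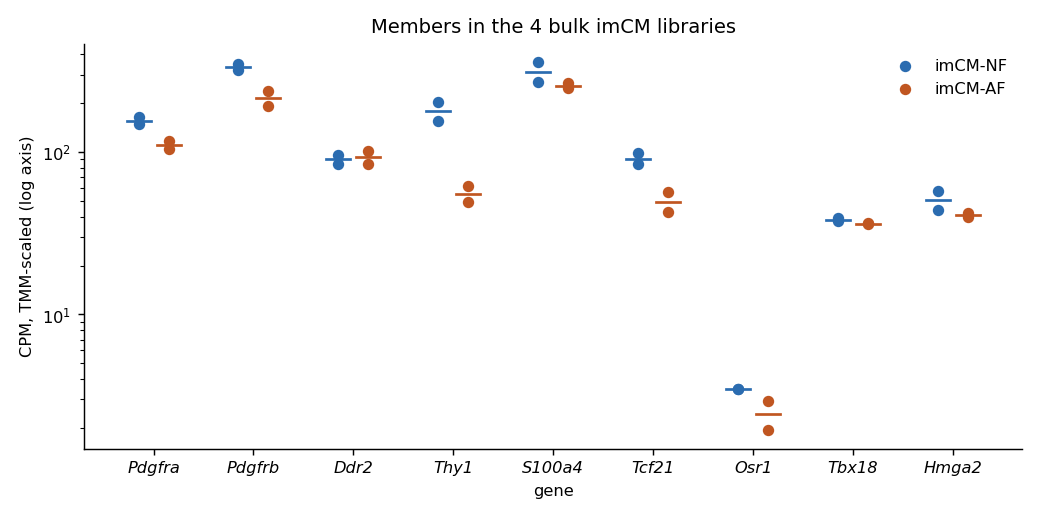
Level of each gene in the 4 bulk imCM libraries, in TMM-scaled CPM on a log axis, with 1 point per library and a bar at the group mean. Thy1 shows the widest gap, 155 and 204 CPM in imCM-NF against 62.1 and 49.1 CPM in imCM-AF, and the Ddr2 points overlap.

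Among the surface genes, Thy1 stood at 155 and 204 CPM in the imCM-NF libraries and at 62.1 and 49.1 CPM in the imCM-AF libraries. Both imCM-AF libraries were lower than both imCM-NF libraries, by 1.70 ± 0.13 on the log2 scale or 3.24-fold (edgeR adjusted p 1.6e-07). Pdgfrb had levels of 322 and 346 CPM beside neonatal fibroblasts and of 238 and 192 CPM beside adult ones, a log2 difference of -0.64 ± 0.12 (edgeR adjusted p 7.3e-04). Its groups did not overlap, but the difference no longer reached the 0.58 threshold when replicate 2 of imCM-NF (-0.58) or replicate 2 of imCM-AF (-0.48) was left out. For Pdgfra the imCM-NF libraries read 148 and 164 CPM and the imCM-AF libraries 117 and 104 CPM. Its difference of -0.50 ± 0.10 had an edgeR adjusted p of 0.00166 and did not reach the fold threshold.

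Ddr2 read 84.8 and 96.4 CPM with neonatal and 102 and 84.9 CPM with adult fibroblasts, so the groups overlapped, with a difference of 0.04 ± 0.11 (edgeR adjusted p 0.81). The sign of this value turned when replicate 1 of imCM-NF (-0.05) or replicate 1 of imCM-AF (-0.08) was left out. S100a4 read 269 and 357 CPM in the imCM-NF libraries and 265 and 247 CPM in the imCM-AF libraries. The log2 difference of S100a4 was -0.29 ± 0.12 and did not pass the test (edgeR adjusted p 0.094), and when replicate 2 of imCM-NF was left out it was -0.061.

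Of the transcription factors, Tcf21 read 84.2 and 98.1 CPM with neonatal and 56.4 and 42.5 CPM with adult fibroblasts. It fell by 0.89 ± 0.12 on the log2 scale (edgeR adjusted p 5.4e-05), with both imCM-AF libraries below both imCM-NF libraries. Tbx18, its partner among the epicardial factors, read 39.2 and 37.5 CPM with neonatal and 35.9 and 36.5 CPM with adult fibroblasts, a difference of -0.08 ± 0.10 (edgeR adjusted p 0.575). Hmga2 read 43.9 and 57.8 CPM with neonatal and 42.1 and 39.7 CPM with adult fibroblasts. Its log2 difference of -0.33 ± 0.12 reached an edgeR adjusted p of 0.0498, below the fold threshold. When replicate 2 of imCM-NF was left out, the difference of Hmga2 was -0.097 (edgeR adjusted p 0.624), and with either imCM-AF library left out its adjusted p was 0.059 or 0.223. Osr1 had few reads in all libraries, with 3.46 and 3.47 CPM beside neonatal and 2.92 and 1.93 CPM beside adult fibroblasts (-0.52 ± 0.29, edgeR adjusted p 0.195).

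Genes that act with the members were read from the same fit. None of the 4 PDGF ligand genes was called, and their median log2 difference was 0.19. Of 5 other collagen receptors only Itga11, an integrin subunit of mesenchymal cells, was called, at -0.91 ± 0.24. Of 8 other mesenchymal surface antigens, Ly6a (Sca-1), a stem and progenitor cell antigen, rose from 4.35 and 5.29 CPM to 47.9 CPM in both imCM-AF libraries (3.29 ± 0.14), and Cd34, a progenitor and endothelial antigen, fell (-0.78 ± 0.09). Of 17 other mesenchymal and epicardial transcription factors 16 were tested and 3 fell, Meox1 (-1.36 ± 0.24), Foxs1 (-0.91 ± 0.13) and Snai2 (-0.86 ± 0.16). Of 7 other S100 genes 3 fell, S100a11 (-0.70 ± 0.10), S100a10 (-0.66 ± 0.11) and S100a16 (-0.59 ± 0.11). None of the 6 tested genes of the list around Hmga2 and its regulator let-7 was called.

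Markers of other cells moved in the same libraries. Of 12 fibroblast matrix markers 7 fell and 1 rose, with a median log2 difference of -0.725 and summed levels of 23921 and 26543 CPM beside neonatal against 17443 and 14060 CPM beside adult fibroblasts. Of 8 endothelial markers 4 fell and their sum went from 1414 and 1514 CPM to 1096 and 992 CPM. Of 10 smooth muscle and pericyte markers 2 fell and 1 rose, of 8 macrophage markers 2 fell, and of 7 mesothelial markers 1 fell. Of 10 proliferation genes 3 fell. Of 10 cardiomyocyte markers 1 rose (Pln), and none was called lower. The part of these cells in the members' differences was not tested.

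In the co-culture fibroblast wells the second comparison set adult against neonatal fibroblasts directly. The PDGF receptors, Ddr2 and Tbx18 were higher in adult wells, by 2.199-fold for Pdgfra, 2.77-fold for Pdgfrb, 2.47-fold for Ddr2 and 3.84-fold for Tbx18. Thy1 and S100a4 were lower, by 4.97-fold and 2.33-fold. UMIs were summed over the 213 kept AF wells and 251 kept NF wells and set on the CPM scale with all UMIs of those wells as the total. A gene was counted where the sums differed over 2-fold and both source names of one kind lay beyond both of the other. By this rule 4 of 9 members were higher and 2 lower in AF, where 12.3% of 9016 genes with at least 10 CPM in either kind were higher and 4.79% lower. The median log2 ratio was -0.30 over the members and 0.13 over those 9016 genes, so the members' ratios stand against a shift of all genes of that size.

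**Figure D2:**
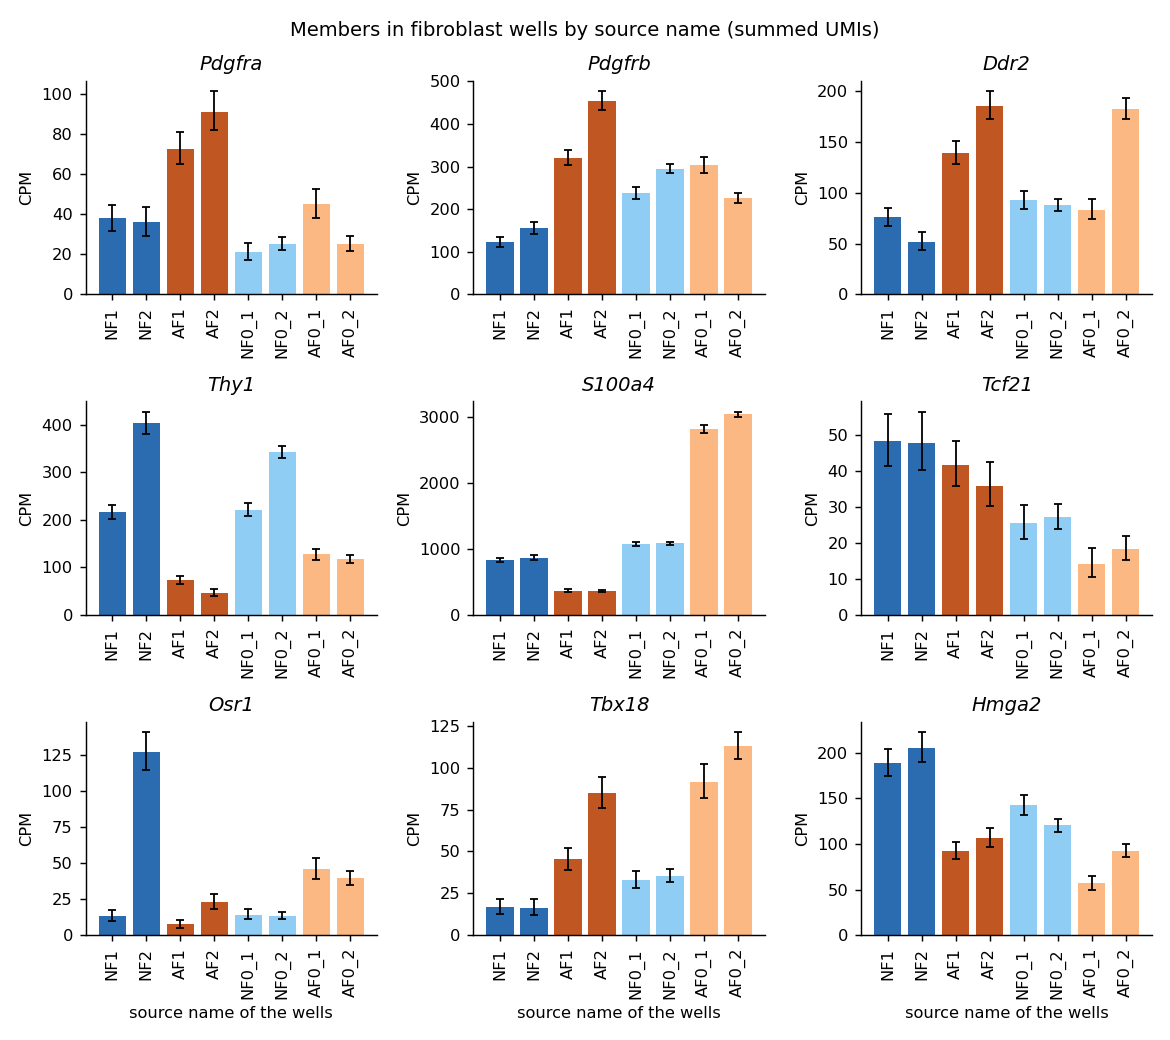
Level of each gene in fibroblast wells, in CPM of summed UMIs, with 1 bar per source name and the 95% Poisson interval as the error bar. S100a4 was lower in AF1 and AF2 than in NF1 and NF2 but highest in AF0_1 and AF0_2, and the high Osr1 value of NF came from NF2 alone.

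Pdgfra was at 72.8 and 91.3 CPM in AF1 and AF2 and at 37.9 and 36.0 CPM in NF1 and NF2, so the sources did not overlap. Its log2 ratio was 1.14 (0.92 to 1.36). Pdgfrb was at 321 and 455 CPM in AF1 and AF2 and at 124 and 156 CPM in NF1 and NF2, a log2 ratio of 1.47 (1.36 to 1.58). Both receptors thus stood higher in each adult source than in each neonatal one.

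Ddr2 was at 139 and 186 CPM in the AF sources and at 75.9 and 52.0 CPM in the NF sources (log2 ratio 1.30, 1.14 to 1.46). Tbx18 was at 45.3 and 84.7 CPM in AF and at 16.7 and 16.4 CPM in NF (1.94, 1.64 to 2.25). The 2 AF sources of Tbx18 differed from each other by more than the 2 NF sources did, and 1 well gave 34.0% of its UMIs in AF1 and 33.4% in AF2.

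Thy1 went the other way, with 72.6 and 46.6 CPM in AF and 216 and 403 CPM in NF, a log2 ratio of -2.31 (-2.46 to -2.17). S100a4 was at 369.6 and 361 CPM in AF and at 834 and 870.0 CPM in NF (-1.22, -1.28 to -1.15). Hmga2 was at 92.4 and 107 CPM in AF and at 189 and 205 CPM in NF. Its ratio of -0.98 (-1.11 to -0.86) stopped just short of 2-fold, while the sources did not overlap.

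Tcf21, a factor used to trace cardiac fibroblasts, had the ratio nearest 0 of the 9 members, with 41.8 and 36.0 CPM in AF and 48.3 and 47.9 CPM in NF (-0.30, -0.53 to -0.07). Its sign turned when no UMI limits were set on wells (0.02), and 1 AF1 well gave 51.4% of the Tcf21 UMIs of that source. Osr1 was at 7.70 and 23.0 CPM in AF but at 13.1 and 127 CPM in NF1 and NF2, so the pooled ratio of -2.11 (-2.42 to -1.82) rested on NF2, and without NF2 it was 0.18. A single NF2 well gave 35.5% of the Osr1 UMIs of that source.

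Markers of other cells were found in these wells. Whether they came from such cells, from free RNA or from the fibroblasts was not tested. Cardiomyocyte markers summed to 1016 and 138 CPM in AF1 and AF2 and to 3276 and 3075 CPM in NF1 and NF2, and none of the 10 was at 0 in any source. With wells over 1% cardiomyocyte marker UMIs left out, 211 AF and 238 NF wells remained and 7 of 9 members passed the rule instead of 6. Endothelial markers summed to 483 and 223 CPM in AF and 350 and 202 CPM in NF, and macrophage markers to 77.2 and 45.8 CPM in AF and 219 and 294 CPM in NF. In wells with under 3 UMIs of such genes 6 members passed the rule. The shares of all genes that pass in these smaller sets of wells are not given here, so the counts are descriptions. Fibroblast matrix markers summed to 13329 and 18534 CPM in AF and to 10639 and 11505 CPM in NF, with 6 of 12 higher in AF by the same rule and 0 lower. Smooth muscle and pericyte markers summed to 2059 and 2124 CPM in AF and to 2169 and 2442 CPM in NF, with 1 of 10 higher in AF and 1 lower. Their part in the Pdgfrb values was not tested. Median UMIs per well were 27905 in AF and 16587 in NF.

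Of the genes listed beside the members, 4 of 17 other mesenchymal and epicardial transcription factors were higher in AF by the same rule and 0 were lower. They were Twist2 (21.3 against 3.997 CPM), Nr2f1 (16.6 against 4.30), Prrx1 (237 against 91.6) and Nr2f2 (45.1 against 18.1). Ly6a was at 38.9 CPM in AF and 1.69 CPM in NF, and Cd34 at 6.57 and 31.0 CPM. Of 5 other collagen receptors Itga1 was higher (34.0 against 11.8 CPM). No PDGF ligand gene and no other S100 gene passed the rule, and of the list around Hmga2 only its relative Hmga1 did, at 5.70 CPM in AF and 12.4 CPM in NF.

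The fibroblast wells with a 0 in their source name gave the same contrast in 182 AF0 and 318 NF0 wells. Here Tbx18, Osr1 and S100a4 were higher in adult wells, by 3.05-fold, 3.04-fold and 2.74-fold, and Thy1 was lower by 2.49-fold. By the rule above 3 of 9 members were higher and 1 lower, where 11.5% of 9225 genes were higher and 6.24% lower. The median log2 ratio was 0.42 over the members and 0.11 over those genes.

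S100a4 stood at 2827 and 3046 CPM in AF0_1 and AF0_2 and at 1078 and 1086 CPM in NF0_1 and NF0_2, a log2 ratio of 1.46 (1.43 to 1.48). Its direction was thus opposite to that of the co-culture wells. Within adult fibroblasts its level was 366 CPM (353 to 379) in AF and 2971 CPM (2938 to 3005) in AF0, and within neonatal fibroblasts it was 850 CPM (828 to 873) in NF and 1083 CPM (1066 to 1101) in NF0. Over the alternatives tried on the AF0 and NF0 wells its log2 ratio stayed between 1.38 and 1.56.

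Thy1 was at 127 and 117 CPM in AF0 and at 220.2 and 342 CPM in NF0 (log2 ratio -1.32, -1.41 to -1.22). It was the one member that was lower in adult wells beyond 2-fold in both sets of fibroblast wells. Tbx18 was at 91.6 and 113 CPM in AF0 and at 33.0 and 35.5 CPM in NF0 (1.61, 1.45 to 1.77), and was higher in adult wells of both sets. Osr1 was at 45.7 and 39.7 CPM in AF0 and at 14.4 and 13.4 CPM in NF0 (1.61, 1.36 to 1.86), with both AF0 sources above both NF0 sources. A single well gave 28.5% of the Osr1 UMIs of AF0_1 and another 12.5% of those of AF0_2.

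The receptors that were raised in adult co-culture wells were not apart in the wells with a 0. Pdgfrb was at 303 and 226 CPM in AF0 and 239 and 296 CPM in NF0, so the sources overlapped. Pdgfra was at 45.1 and 25.2 CPM in AF0 and at 21.2 and 25.3 CPM in NF0. Ddr2 was at 83.2 and 182 CPM in AF0_1 and AF0_2 and at 92.5 and 87.6 CPM in NF0, and its ratio turned to -0.10 without AF0_2. Hmga2 and Tcf21 were lower in both AF0 sources, with log2 ratios of -0.67 (-0.79 to -0.55) and -0.66 (-0.93 to -0.40), both under 2-fold.

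Of 8 genes listed around Hmga2, 5 had at least 10 CPM in either kind and 3 were lower in AF0 by the same rule. They were Igf2bp1 (4.54 against 33.7 CPM), Igf2bp3 (9.08 against 27.3) and Igf2 (0.592 against 15.7), RNA-binding proteins and a growth factor of fetal tissue. Other lists moved as well. Of 8 other mesenchymal surface antigens 3 were higher and 1 lower, and of 17 other transcription factors 2 were higher and 1 lower. Of 7 other S100 genes 1 was higher and 1 lower, of 4 PDGF ligand genes 1 was higher, and of 5 other collagen receptors 1 was lower. Mesothelial markers summed to 364 CPM in AF0 and 31.6 CPM in NF0, endothelial markers to 509 and 111 CPM, macrophage markers to 80.1 and 854.7 CPM, and cardiomyocyte markers to 214 and 4224 CPM. Smooth muscle and pericyte markers summed to 3096 CPM in AF0 and 3905 CPM in NF0, with 2 of 10 higher in AF0 and 2 lower. In wells with under 3 endothelial or macrophage UMIs, 107 AF0 and 280 NF0, the count of members that passed was 4, as over all kept wells. The share of all genes that pass in these wells is not given here. The part of mesothelial cells in the Tbx18, Osr1 and S100a4 values was not tested.

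**Figure D3:**
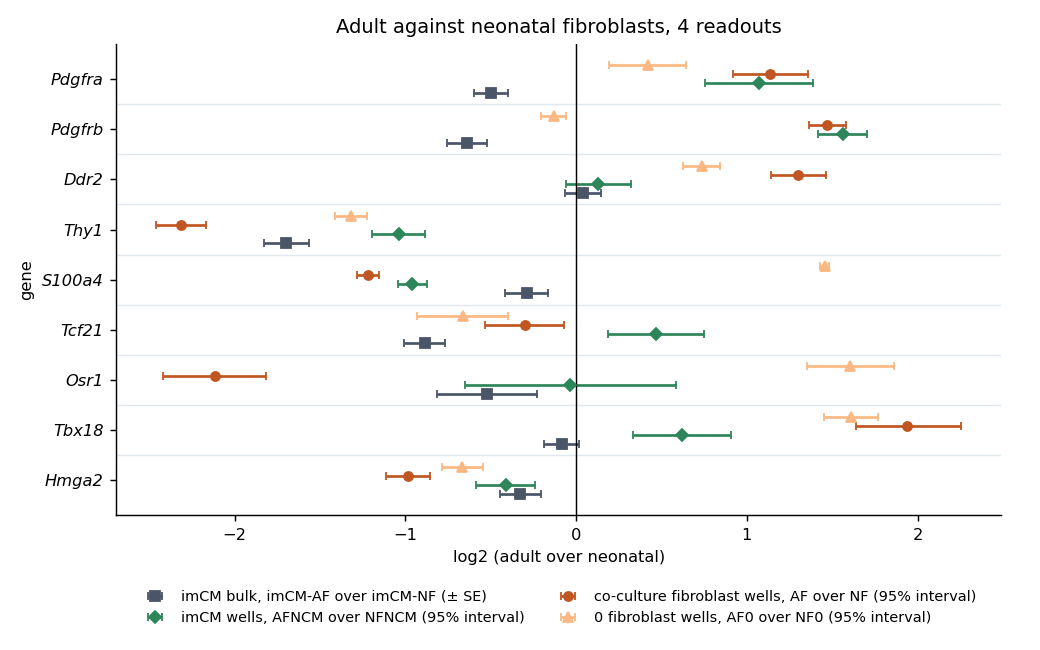
Log2 of adult over neonatal for each gene in 4 readouts, with ± SE for the bulk libraries and 95% counting intervals for wells. Thy1 and Hmga2 lie left of 0 in all 4, S100a4 lies at 1.46 in the wells with a 0 and left of 0 elsewhere, and the Pdgfrb value of the bulk libraries (-0.64) lies opposite to that of the co-culture wells.

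The imCM wells of the cardiomyocyte chip, 509 AFNCM and 517 NFNCM wells, were compared in the same way. Pdgfrb was higher in imCM wells from the adult co-culture by 2.95-fold and Thy1 was lower by 2.05-fold. By the rule above 1 of 9 members was higher and 1 lower, where 6.02% of 8444 genes were higher and 0.711% lower, and the median log2 ratio was 0.13 both over the members and over those genes. Pdgfrb was at 103, 103 and 152 CPM in AFNCM1 to AFNCM3 and at 47.2, 47.7 and 29.4 CPM in NFNCM1 to NFNCM3 (log2 ratio 1.56, 1.42 to 1.71). This direction was opposite to that of the bulk imCM libraries.

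Thy1 was at 46.9, 34.3 and 34.1 CPM in AFNCM and at 73.3, 87.4 and 66.0 CPM in NFNCM (-1.04, -1.19 to -0.88). S100a4 was at 159, 145 and 91.8 CPM in AFNCM and at 268, 278 and 191 CPM in NFNCM (-0.96, -1.04 to -0.87), the sources being apart but under 2-fold. Pdgfra was at 37.6, 14.8 and 15.6 CPM in AFNCM and 21.1, 5.13 and 3.73 CPM in NFNCM, and a single well gave 44.4% of the NFNCM1 UMIs. Osr1 was at 3.48 and 3.57 CPM in the summed wells, below the level at which ratios were read.

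Fibroblast matrix markers were higher in AFNCM, as Pdgfrb was, whereas Thy1 and S100a4 were lower. The markers summed to 5905 CPM in AFNCM and 3735 CPM in NFNCM, and 7 of the 12 were higher than in NFNCM by the same rule. With wells at or over 0.1% of UMIs from Col1a1, Col1a2 and Col3a1 left out, 316 AFNCM and 431 NFNCM wells remained. The Pdgfrb ratio was then 0.26 (-0.01 to 0.53), that of Pdgfra -1.34 (-2.11 to -0.62), that of Tcf21 -1.24 (-2.09 to -0.46), and that of Thy1 -0.67 (-0.97 to -0.38). This limit was chosen after seeing the data. Endothelial markers summed to 301 CPM in AFNCM and 81.8 CPM in NFNCM, and 7 of the 8 were higher than in NFNCM.

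The order of levels over the kinds of well differed from gene to gene, and neighbours in it are said to overlap where the ranges of their source names met. Thy1 was highest in NF0 and NF (300.3 and 299.9 CPM), which overlapped, followed by AF0 (121), NFNCM (76.0), AF (60.4), NCM0 (59.3) and AFNCM (37.0). Of these, NFNCM and AF, AF and NCM0, and NCM0 and AFNCM overlapped, so the order below AF0 did not hold across sources. S100a4 ran from AF0 (2971 CPM) over NF0 (1083), NF (850), AF (366), NFNCM (247) and NCM0 (163) to AFNCM (127), where the sources of NCM0 overlapped with those of both NFNCM and AFNCM. Pdgfrb ran from AF (384 CPM) over NF0 (276), AF0 (252), NF (138), AFNCM (123) and NFNCM (41.6) to NCM0 (28.4), with NF0 and AF0, NF and AFNCM, and NFNCM and NCM0 overlapping.

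Pdgfra was highest in AF (81.5 CPM), then NF (37.0), AF0 (32.0), NF0 (23.9), AFNCM (20.2), NFNCM (9.64) and NCM0 (3.13), and all neighbours below AF overlapped. Ddr2 ran from AF (161 CPM) over AF0 (149), NF0 (89.3), NF (65.2), AFNCM (36.0) and NFNCM (32.9) to NCM0 (22.5). AF0 overlapped with both AF and NF0 for Ddr2, its place above NF0 resting on AF0_2, and AFNCM overlapped with NFNCM. Tcf21 was highest in NF and AF (48.1 and 39.1 CPM), then NF0 (26.7), AFNCM (19.1), AF0 (16.9), NFNCM (13.9) and NCM0 (1.64), where neighbours from NF0 to NFNCM overlapped and the intervals of NF and AF met. Tbx18 was highest in AF0 (106 CPM), then AF (63.7), NF0 (34.6), AFNCM (20.04), NF (16.6), NFNCM (13.05) and NCM0 (9.26), where NFNCM overlapped with NCM0 and the intervals met from one to the next among the last 4.

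Hmga2 was highest in NF (196 CPM), then NF0 (128), AF (99.2) and AF0 (80.5), which overlapped, and NFNCM (48.0), AFNCM (36.0) and NCM0 (33.3), which also overlapped from one to the next. Osr1 was highest in NF (64.4 CPM) through the single source NF2, then AF0 (41.7), AF (14.9), NF0 (13.7), NCM0 (5.82), NFNCM (3.57) and AFNCM (3.48), of which NF and AF0, AF and NF0, and the last 3 in turn overlapped.

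Shares of wells were compared after thinning each well to 5000 UMIs, which left out 11 AF, 33 NF, 1 AF0, 18 NF0, 77 AFNCM, 113 NFNCM and 43 NCM0 wells. S100a4 was seen in 57.4% (50.3 to 64.3) of AF wells and 89.9% (85.1 to 93.6) of NF wells, but in 100% (98.0 to 100) of AF0 wells and 94.3% (91.1 to 96.7) of NF0 wells. Without thinning the shares were 78.4% in AF and 96.0% in NF. Pdgfrb was seen in 50.5% (43.4 to 57.6) of AF wells and 32.1% (26.0 to 38.8) of NF wells, and Thy1 in 18.8% (13.7 to 24.9) and 49.1% (42.3 to 55.9).

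**Figure D4:**
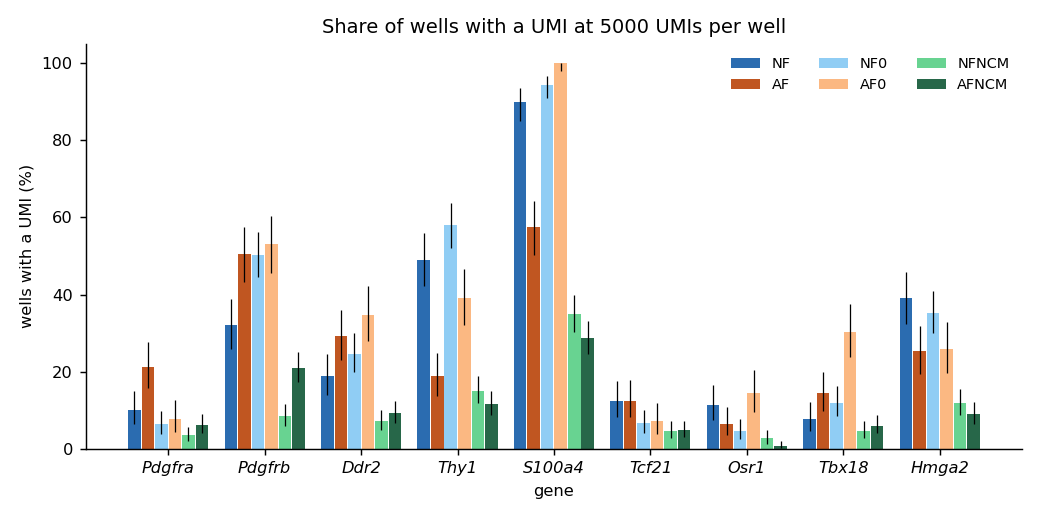
Share of wells with at least 1 UMI of each gene after thinning to 5000 UMIs per well, for 6 kinds of well, with exact 95% binomial intervals. S100a4 reaches 100% of AF0 wells and 57.4% of AF wells, and Thy1 falls from 49.1% of NF wells to 18.8% of AF wells.

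The NCM0 wells, read as cardiomyocytes from the label of their chip, served as the comparison for these shares, at a median of 16505 UMIs. Their cardiomyocyte markers summed to 38481 CPM. Their fibroblast matrix markers summed to 3391 CPM, and whether their UMIs of the members were free RNA, fibroblasts or RNA of the cardiomyocytes was not tested. Thy1 was seen in 15.4% (10.9 to 20.8) of NCM0 wells, an interval that met that of AF and lay below that of NF. Without thinning the Thy1 share was 19.1% in NCM0_1 and 39.0% in NCM0_2. The NCM0 wells are on the other chip and the intervals cover counting error only, so no difference between these kinds was tested. S100a4 was seen in 38.9% (32.4 to 45.7) of NCM0 wells, 20.7% in NCM0_1 and 50.7% in NCM0_2, Hmga2 in 11.8% (7.83 to 16.8), Pdgfrb in 5.88% (3.17 to 9.85) and Pdgfra in 0.452% (0.0115 to 2.495). Pdgfra was above this in AF (21.3%, 15.9 to 27.6) and NF (10.1%, 6.43 to 14.9). Tcf21 was seen in 12.4% of both AF (8.17 to 17.7) and NF wells (8.32 to 17.5), against 1.81% (0.495 to 4.57) of NCM0 wells. The 5 negative control wells of each chip held 3 UMIs of the members on the fibroblast chip and 1 on the cardiomyocyte chip.

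After thinning, single wells showed few of these genes at once. The median was 2 members per AF well and 3 per NF, AF0 and NF0 well. In these thinned wells 5 or more were seen in 9.41% of AF, 7.80% of NF, 15.5% of AF0 and 9.67% of NF0 wells. No member was seen in 8.42% of AF and 2.29% of NF wells, and in 46.3% of AFNCM and 51.2% of NFNCM wells. Pdgfrb was seen in 72.0% of the 25 AF wells with Tcf21 and in 47.5% of the 177 without, and in 80% of the 20 NF0 wells with Tcf21 and 48.2% of the 280 without. In NF it went the other way, with 29.6% of the 27 wells with Tcf21 and 32.5% of the 191 without, and in AF0 the shares were 61.5% of 13 and 52.4% of 168 wells. Pdgfra was seen in 34.5% of the 29 AF wells with Tbx18 and in 19.1% of the others, against 11.8% and 9.95% in NF, 10.9% and 6.35% in AF0 and 11.1% and 5.68% in NF0. These shares are descriptions, since wells of 1 source are not replicates. They and the counts per well hold for thinned wells only, and thinning limits how many members a well can show. Without thinning Pdgfrb was seen in 71.8% of AF, 49.8% of NF, 84.6% of AF0 and 71.4% of NF0 wells. After thinning its shares were 50.5%, 32.1%, 53.0% and 50.3%. Members per well without thinning are not given here.

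Over the 16 source names, the genes whose levels followed a member most closely were named by Pearson's r of log2(CPM + 1) among 9086 genes with at least 20 CPM in a source. The points share 2 chips and differ in their mix of cells, so r is a description. S100a4 was closest to Csf1 (0.97), S100a6 (0.97) and Cemip (0.97), Ddr2 to Fgfr1 (0.95), Gm4735 (0.93) and Rpl11 (0.93), and Pdgfra to Nucb2 (0.95), Pdia3 (0.93) and Hnrnpc (0.93). Pdgfrb was closest to Gm4997 (0.96), Rps20 (0.95) and Rrbp1 (0.95), Tcf21 to Sri (0.96), Tmem167 (0.95) and Zfp991 (0.94), and Tbx18 to Ssr3 (0.95), P4ha1 (0.94) and Synpo (0.93). Hmga2 was closest to Fads1 (0.94), Gm12727 (0.94) and Ppp1r14b (0.93), Osr1 to Alyref (0.94), Phldb2 (0.93) and Foxk2 (0.91), and Thy1 to Cst6 (0.87), Myl12a (0.87) and Lpcat2 (0.87). Between members r was highest for Ddr2 and Tbx18 (0.89) and for Pdgfrb and Ddr2 (0.88), and lowest for Thy1 and Tbx18 (0.16).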

How the data were processed

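Bulk imCM RNA was sequenced in 2 imCM-NF and 2 imCM-AF libraries, and single wells on 1 fibroblast and 1 cardiomyocyte chip. Raw counts per gene of the bulk libraries were deposited by the authors, made from uniquely placed reads on mm10 with Subread (1.4.6-p1 in the submitters' processing notes) and featureCounts. For the chips the authors deposited UMI counts per well and Ensembl gene, made with STAR 2.5.2b and featureCounts. The deposited well reports hold read counts per processing step. The authors' own bulk comparison (log fold changes) was not used, and 0 columns of per-sample values were left aside. Whether replicates were separate cultures is not stated, so p-values measure the spread between these libraries only.

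Bulk genes with CPM over 1 in at least 2 libraries (14041) were fitted with edgeR 4.0.16 (quasi-likelihood, TMM, group only) in R 4.3.3, adjusted by Benjamini-Hochberg over all of them. CPM stood in for the study's RPKM filter. Symbols came from RefSeq, with none for 1904 identifiers. Alternatives used DESeq2 1.42.0, limma 3.58.1 (voom), other scalings, no filter, a replicate block and each library left out. Same-numbered libraries deviated with a correlation of -0.176 over genes. With 2 libraries per group this cannot show whether the numbers pair them. Replicates differed beyond sampling noise (chi-square per degree of freedom 9.17 and 9.06). On simulated counts the fit was checked.

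Kept wells had 500 genes or more, over 50% of read pairs aligned and UMIs within 2 SD of the mean, without mitochondrial genes or controls. Only the upper UMI limit could remove wells, and it removed more adult than neonatal co-culture fibroblast wells. Without UMI limits 245 AF and 259 NF wells remained, and with them 213 and 251. No doublet caller was run, as wells had been image-selected. Levels are summed UMIs with exact Poisson intervals, shares have exact binomial (Clopper-Pearson) intervals, and ratios have exact conditional intervals. UMI totals per well set the precision.

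All 9 members were named in each library and kind of well, with up to 4 called genes per further list and the 3 closest genes over source names. Members, lists and tests were chosen with earlier results of these data known.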

Additional observations from a re-analysis of the deposited data

Results flagged for a closer look

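Members are listed here if every adult sample lay above every neonatal sample in a kind of data and below in another. Samples here are libraries or source names. How many of all genes do so was not counted, so the list is no result about the members. These differences between kinds were not tested, and the bulk libraries and the wells are different assays. S100a4 had log2 values of -0.29 in the bulk imCM libraries, -1.22 in the co-culture fibroblast wells and -0.96 in the imCM wells, but 1.46 in the fibroblast wells with a 0 in their name. Pdgfrb was at -0.64 in bulk but at 1.47 in the co-culture fibroblast wells and 1.56 in the imCM wells. Pdgfra was at -0.50 in bulk and at 1.14 in the co-culture fibroblast wells. Tbx18 was at -0.083 in bulk, within the error of that value, and at 1.94 in co-culture fibroblast wells, 1.61 in the wells with a 0 and 0.62 in imCM wells. Tcf21 was at -0.89 in bulk, -0.30 in co-culture fibroblast wells and -0.66 in the wells with a 0, against 0.47 in imCM wells. Osr1 was at -0.52 in bulk, not past the test, and at 1.61 in the fibroblast wells with a 0. Marker lists also turned between the bulk libraries and the imCM wells. The median log2 value of the fibroblast matrix markers was -0.725 in bulk and 1.5 in imCM wells. For endothelial markers it was -0.624 and 1.94, while macrophage markers stayed below 0, at -0.462 and -0.707. Proliferation genes went from -0.498 in bulk to 0.605 in imCM wells, and smooth muscle and pericyte markers from -0.430 to 0.414. Mesothelial markers went from -0.102 to 1.56, the latter from 1 gene, and cardiomyocyte markers the other way, from 0.255 to -0.23. Whether members and lists turned for the same reason was not tested.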

How the results depend on the processing

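The bulk count of 1564 genes was 3789 at adjusted p alone and ranged from 879 to 1929 with libraries left out (lowest with replicate 2 of imCM-NF left out, and 988 with replicate 2 of imCM-AF left out). The replicate block, whose numbers may not pair the libraries, gave 1430 genes, and the crossed pairing, chosen after seeing the data, gave 1668. The count of 3 members stayed at 3 with the block and became 5 at adjusted p alone. No bulk member changed its call under another scaling, filter or test. Pdgfrb was no longer called when replicate 2 of either group was left out (-0.58 and -0.48), and Ddr2, not called, lay between -0.082 and 0.17 with libraries left out.

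Among well ratios, Tcf21 in co-culture fibroblasts turned to 0.019 with no filter and to 0.021 with no UMI limits, and Osr1 to 0.18 without NF2 (lowest -3.10). In the wells with a 0, Pdgfrb turned to 0.033 with equal weights and ranged from -0.29 to 0.13 with sources left out, and Ddr2 from -0.10 to 1.03. In imCM wells with low matrix markers Pdgfra turned to -1.34, Tcf21 to -1.24 and Tbx18 to -0.039, the count of members past the rule was 1 instead of 2, and it was 1 to 3 with sources left out. Tcf21 there turned to -0.068 with equal weights. The causes were not tested, and the shares of all genes past the rule under these alternatives are not given here. Leaving out sources and the matrix limit were chosen after seeing the data. Shares moved with depth in 60 of 72 values. Depth limits Osr1, which was at under 4 CPM in the bulk libraries and in the summed AFNCM and NFNCM wells.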
